A study of Rattus norvegicus with 22 samples.

Results

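Maternal livers of pregnant Wistar rats taken at gestational day 12 were compared between retinoic acid and all other treatments. The 2 retinoic acid arrays, coded RA5 and RA56, came from dams given 12 mg/kg/day. The 3 others were a control, an EMD50 and an EMD150 array, the last 2 from dams given EMD 82571, a calcium sensitiser also named MSC1096199, at 50 or 150 mg/kg/day. These are 5 of the 22 arrays of a study of how that drug harms development, and retinoic acid is itself a known teratogen. Dams were dosed daily, from day 6 to day 11 and from day 6 to day 17 per the labels' protocols, while the design text names days 6 to 17 alone. No group but retinoic acid had more than 1 array, and neither the codes RA5 and RA56 nor any sharing of dams between samples is explained in the sources used here. The p-values therefore measure the spread between these 5 samples, which for the 3 others also holds any effect of EMD 82571. A probe set, the unit of the array that reports on a transcript, was counted where both retinoic acid arrays lay above all 3 others or below all 3, so that no count rests on the control array alone. The gap is the log2 distance between the retinoic acid array and the other array that lay nearest to each other.

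Retinoic acid is the active form of vitamin A. It binds the nuclear receptors of the RAR family, which sit with an RXR partner on pairs of hexamer motifs in the DNA of target genes. The liver stores vitamin A as retinyl esters, made by the enzyme of Lrat in stellate cells, and hepatocytes break retinoic acid down with the enzyme of Cyp26a1, a direct RAR target. Metallothioneins such as that of Mt2A bind zinc and copper and respond to metals, glucocorticoids and inflammation. Levels below are log2 RMA values, a scale on which a difference of 1 is a 2-fold change, and levels of different genes are not set against each other.

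Of the 15866 probe sets tested, 2174 (13.7%) had both retinoic acid arrays above all 3 others and 2353 (14.8%) had both below. These stand for 1808 and 1660 distinct genes. Most of the separations were narrow, with a median gap of 0.06 above and 0.037 below, and a gap of 0.5 or more was found for only 11 and 4 probe sets. Limma, which fits all probe sets together, called 4 probe sets at an adjusted p under 0.05 (0.0252%), 3 higher and 1 lower with retinoic acid, and gave 1596 an unadjusted p under 0.05. The called genes were Cyp26a1, Mt2A, Plac8 and Ptger3. The count of 4 became 0 with quantile normalization or without the intensity trend, and it was 1 without the control or RA5 array, 2 without EMD50, 12 without RA56 and 22 without EMD150.

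The sequences that precede the start of Cyp26a1 and Mt2A are shown because they hold the motifs through which each gene is known from mouse to respond, RAR sites in the first and metal response elements in the second. They are RefSeq promoters of the build GRCr8, read 5′ to 3′ on the gene's strand. Capitals in the first mark a direct repeat with its spacer, and in the second metal response cores.
Cyp26a1, chr1:244883692-244883791, plus strand: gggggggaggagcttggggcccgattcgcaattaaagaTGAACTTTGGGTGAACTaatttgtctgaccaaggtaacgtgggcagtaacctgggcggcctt
Mt2A, chr19:10838739-10838938, minus strand: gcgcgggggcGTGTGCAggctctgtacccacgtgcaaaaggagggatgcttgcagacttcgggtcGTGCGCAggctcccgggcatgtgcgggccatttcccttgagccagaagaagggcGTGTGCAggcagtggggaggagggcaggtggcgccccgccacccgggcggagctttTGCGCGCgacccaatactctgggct
The repeat searched was any pair of the hexamers AGGTCA and AGTTCA in the same direction with 5 bases between them, on both strands. In Cyp26a1 it runs from 92 to 76 bases before the start, on the strand opposite to the gene. Of 33469 promoters of 300 bases, 10 (0.0299%) hold such a repeat. Cyp26a1 and Tmem87a are the members of these 10 with a probe set, and the retinoic acid arrays of Tmem87a lay neither both above nor both below the others, with a difference of -0.04. The same hexamers with 2 bases between them were searched as well, and were found in 17 promoters (0.0508%) and in 0 of the named genes. The metal response core searched was TGCACNC or TGCGCNC, on both strands and with overlaps counted. Mt2A holds 4, the first 220 and the last 55 bases before the start. At least 1 core is found in 24.2% of all promoters and 4 or more in 0.439%. Of the named genes, 121 had a promoter in the table, and 29 of these hold a core. A promoter of Clock also holds 4 cores, and another of Clock holds 0. Clock differed by -0.26, and its other probe sets by -0.03 and -0.06.

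Cyp26a1 rose the most. Its level was 10.05 in RA5 and 11.62 in RA56, against 7.29 in the control, 7.58 in EMD50 and 7.23 in EMD150. The retinoic acid arrays lay far above all others, and they also differed from each other by more than the 3 others did. The difference was 3.47 ± 0.37 (SE; adjusted p = 0.0423), an 11.1-fold rise, and the gap of 2.47 was the widest in the comparison. Leaving out either retinoic acid array gave 4.26 and 2.68. Its adjusted p ran from 8.253e-04 to 0.329 over the 13 alternatives and was under 0.05 in 6 of them.

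Mt2A had 12.21 and 12.11 with retinoic acid, against 10.86 in the control, 11.16 in EMD50 and 10.75 in EMD150. Both retinoic acid arrays were close together and clear of the rest. The difference was 1.24 ± 0.12, a 2.35-fold rise (adjusted p = 0.0366). Plac8, which encodes a small cysteine-rich protein first described in placenta, had 9.50 and 9.56 with retinoic acid, against 8.76, 8.71 and 8.78 in control, EMD50 and EMD150. It rose by 0.78 ± 0.08 (adjusted p = 0.0366), and the arrays within each arm lay within 0.1 of each other. Ptger3, the gene of the EP3 receptor for prostaglandin E2, had 6.95 and 7.04 with retinoic acid, against 7.73, 7.78 and 7.68 in the others. It fell, with a difference of -0.74 ± 0.07 (adjusted p = 0.0366). Its other probe set lay below the rest as well, by only -0.21 ± 0.09 (adjusted p = 0.511). Over the 13 alternatives the difference ran from 1.15 to 1.35 for Mt2A, 0.74 to 0.81 for Plac8 and -0.78 to -0.69 for Ptger3. None of these genes was called with quantile normalization or without the intensity trend.

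**Figure D1:**
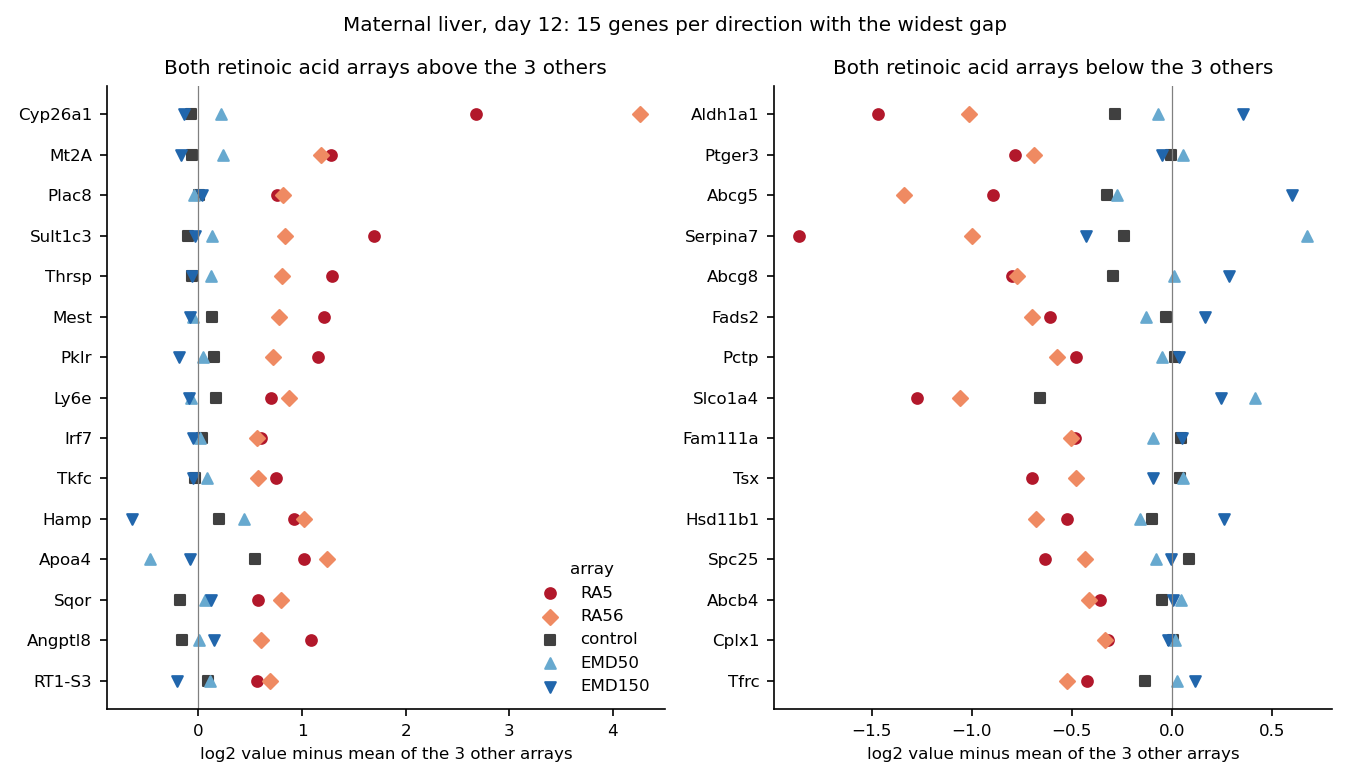
Log2 level of each array minus the mean of the 3 other arrays (x axis) for the 15 genes per direction with the widest gap, ordered by gap from the top. Points are the 5 single arrays; Cyp26a1 stands furthest from 0, and RA5 lies further out than RA56 in 8 of the 15 genes on the left and in 7 of 15 on the right.

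Genes of vitamin A handling lay on both sides of the rest. Of 29 measured genes of retinoid storage and metabolism, 3 lay above the rest and 7 below, where 13.7% and 14.8% of all probe sets did, and the median difference was -0.05 against -0.01 over all probe sets. Beside Cyp26a1, Lrat had 8.58 and 8.41 with retinoic acid, against 7.38, 8.07 and 7.03 in control, EMD50 and EMD150. Both retinoic acid arrays were the highest, but the EMD50 array came near them, and the difference of 1.0 ± 0.25 had an adjusted p of 0.319. Aldh1a1, a retinaldehyde dehydrogenase that makes retinoic acid, had 9.71 and 10.16 with retinoic acid, against 10.89, 11.11 and 11.53 in control, EMD50 and EMD150. That is a difference of -1.24 ± 0.19 (adjusted p = 0.148) with the widest gap on the lower side, 0.73. Retsat, which saturates retinol, had 11.26 and 10.79, against 11.63, 11.91 and 11.51 (-0.66 ± 0.16, adjusted p = 0.3). Rbp4, the carrier of retinol in blood, differed by -0.02, and its retinoic acid arrays lay neither both above nor both below the others.

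Of 26 measured receptors and other known targets of retinoic acid, 4 lay above and 4 below, and with quantile normalization 1 and 2. The share of 15.4% on each side as deposited was near the 13.7% above and 14.8% below of all probe sets. Rara differed by 0.01. Rarb, itself a target of the receptors, had 10.93 and 10.97 with retinoic acid, against 10.74, 10.93 and 10.51, a difference of 0.22 ± 0.12 with a gap near 0 (adjusted p = 0.562). Among 15 genes of metallothioneins and zinc, Mt2A was the only 1 called. Mt1 had 6.98 and 7.43 with retinoic acid, against 7.03, 7.001 and 7.04, with RA5 the lowest and RA56 the highest of the 5 arrays. Mtf1, the metal-sensing factor that binds the cores, differed by 0.12 (adjusted p = 0.612), and the zinc importer gene Slc39a4 by -0.48 (adjusted p = 0.362).

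Cyp26a1, Lrat and Mt2A were followed over all 22 arrays. In maternal liver at day 20, with a single retinoic acid array, Cyp26a1 had 7.60 with retinoic acid, against 8.17 in the control, 9.43 in EMD50 and 8.49 in EMD150. The retinoic acid array was there the lowest of the 4. A difference between the days cannot be told apart here from the length of dosing or the time since the last dose. The difference at day 12 exceeded that at day 20 by 4.56 ± 0.68 (limma interaction, adjusted p = 0.014). In whole embryo at day 12, Cyp26a1 had 6.87 and 6.90 with retinoic acid, against 6.82, 6.88 and 6.72, so the arms differed by 0.08. The maternal liver difference was larger by 3.39 ± 0.48 (adjusted p = 0.0407). Mt2A had 9.89 with retinoic acid at day 20, against 12.26, 11.54 and 10.85 in control, EMD50 and EMD150, again the lowest array. Its interaction with the day was 2.89 ± 0.50 (adjusted p = 0.0284). In whole embryo it had 12.43 and 11.60 with retinoic acid, against 11.79, 10.94 and 10.88, and the interaction with the tissue was 0.42 ± 0.41 (adjusted p = 0.918). Lrat was again highest with retinoic acid at day 20, with 7.24 against 6.61, 6.69 and 6.83, and its interaction with the day was 0.47 ± 0.37 (adjusted p = 0.73), not called.

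**Figure D2:**
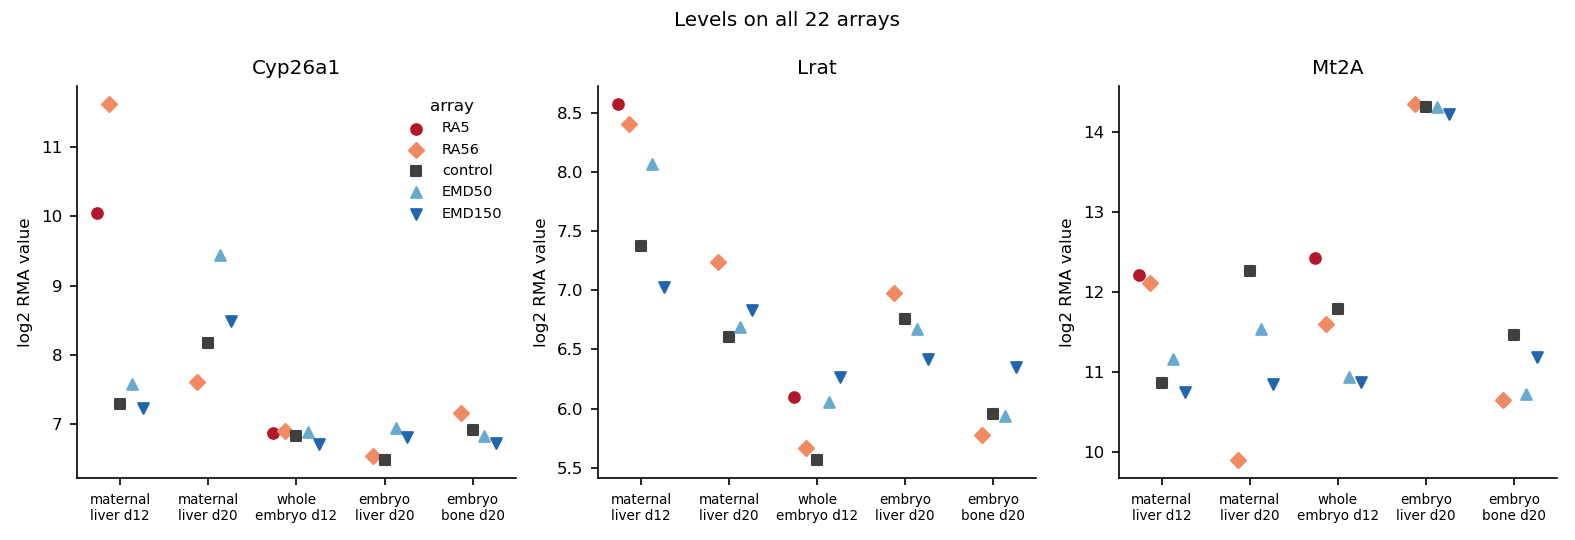
Log2 RMA level (y axis) of Cyp26a1, Lrat and Mt2A on the single arrays of the 5 tissues and days (x axis), retinoic acid arrays first in each. Cyp26a1 reaches 10.05 and 11.62 in the retinoic acid livers of day 12 and 7.60 in that of day 20, and whole embryos stay between 6.72 and 6.90.

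The next widest gaps above the rest belonged to genes that limma did not call. Sult1c3, a sulfotransferase gene, had 10.28 and 9.42 with retinoic acid, against 8.48, 8.72 and 8.56 (1.27 ± 0.21, adjusted p = 0.196). Thrsp, which promotes the making of fat and answers to thyroid hormone and carbohydrate, had 12.33 and 11.85, against 10.98, 11.16 and 10.98. Its difference was 1.05 ± 0.14 (adjusted p = 0.0984), and its other probe sets differed by 0.87 (adjusted p = 0.069) and 0.34. Mest, an imprinted gene, had 9.81 and 9.38 with retinoic acid, against 8.74, 8.55 and 8.52 (0.99 ± 0.13, adjusted p = 0.0984). In each of these genes RA5 was the higher of the pair.

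Ly6e, a surface protein gene that answers to interferon, had 9.13 and 9.30 with retinoic acid, against 8.60, 8.36 and 8.34, and Irf7, a transcription factor of the interferon response, had 9.34 and 9.30, against 8.77, 8.75 and 8.69. They differed by 0.79 ± 0.11 and 0.58 ± 0.08 (adjusted p = 0.0984 for both). Hamp, the gene of the iron hormone hepcidin, had 12.69 and 12.78, against 11.96, 12.21 and 11.13, and Apoa4, a lipoprotein gene, 11.47 and 11.69, against 11.00, 9.98 and 10.37. In Apoa4 the control was the nearest of the others. In Hamp EMD50 was the nearest and EMD150 the furthest. The remainder of the 15 were Pklr, Sqor, Angptl8, Tkfc and RT1-S3, at differences of 0.62 to 0.94. Pklr encodes the pyruvate kinase of liver, Tkfc an enzyme of fructose breakdown and RT1-S3 a class I antigen-presenting protein.

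Below the rest, Serpina7, the gene of thyroxine-binding globulin, had 6.40 and 7.26 with retinoic acid, against 8.02, 8.93 and 7.83 in control, EMD50 and EMD150 (-1.43 ± 0.33, adjusted p = 0.281). Abcg5 and Abcg8 encode the subunits of the pump that moves sterols into bile. Abcg5 had 8.09 and 7.64 with retinoic acid, against 8.66, 8.70 and 9.58, and Abcg8 6.96 and 6.99, against 7.47, 7.77 and 8.04. Their differences were -1.12 ± 0.26 (adjusted p = 0.283) and -0.79 ± 0.14 (adjusted p = 0.21), and in both genes the EMD150 array was the highest. Fads2, the delta-6 desaturase that makes polyunsaturated fatty acids, had 11.73 and 11.64, against 12.31, 12.21 and 12.51 (-0.66 ± 0.11, adjusted p = 0.157).

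Slco1a4, an importer of organic anions that is induced by drugs in rat liver, had 8.99 and 9.21 with retinoic acid, against 9.61, 10.68 and 10.52 in control, EMD50 and EMD150. The distance to the control was -0.51 and that to the mean of both EMD 82571 arrays -1.50. Hsd11b1, which regenerates active glucocorticoid, had 10.06 and 9.90, against 10.48, 10.43 and 10.84 (-0.60 ± 0.13, adjusted p = 0.256). The other genes with a wide gap below, Pctp, Fam111a, Tsx, Spc25, Abcb4, Cplx1 and Tfrc, differed by -0.33 to -0.59. Another probe set of Cplx1 differed by -0.04 and was not outside the rest. Another of Tfrc had 10.58 and 10.11 with retinoic acid, against 10.47, 10.96 and 10.85 (-0.42 ± 0.17, adjusted p = 0.48), so its RA5 array lay among the others. Among them Pctp moves phosphatidylcholine between membranes, Abcb4 exports it into bile, Spc25 is part of the kinetochore and Tfrc is the receptor of transferrin.

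Gene lists were described by how many measured members lay outside the rest. A gene counts there by 1 probe set: of 28 named genes that lay outside the rest and have further probe sets, all of these lay on the same side in 12, and in 16 at least 1 did not. Of 28 genes of interferon response and antigen presentation, 12 (42.9%) lay above and 1 (3.57%) below, where 13.7% and 14.8% of all probe sets did. The same counts held with quantile normalization and with equal array SDs. Irf7, Gbp2 (0.40), the immunoproteasome gene Psmb9 (0.37), Irf9 (0.35) and Mx1 (0.29) were among the 12, and Ifit1 was the 1 below (-0.18). The median of the list was 0.11, against -0.01 over all probe sets, and the smallest adjusted p in it was 0.0984. Of 26 genes of fatty acid synthesis, 11 (42.3%) lay above and 2 (7.69%) below, with a median of 0.17. Of the brightest 25% of probe sets, where this list has its median level, 25.1% lay above and 6.88% below. The counts were 9 and 3 with quantile normalization and 10 and 4 with equal SDs. Scd, the stearoyl-CoA desaturase, had 12.43 and 12.10 with retinoic acid, against 11.82, 11.61 and 11.31 (0.69, adjusted p = 0.277). Acaca, which commits acetyl-CoA to fat synthesis, differed by 0.55, the phosphatidate phosphatase gene Lpin1 by 0.48 and Fasn, the fatty acid synthase, by 0.38. The 2 members below were the desaturase genes Fads2 and Fads1 (-0.37).

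Of 23 genes that respond to glucocorticoid, 7 lay above and 2 below, with a median of 0.27. The share above was 30.4%, against 13.7% of all probe sets and 25.1% of the brightest 25%, and 5 lay above with equal SDs. The list had means of 10.43 in RA5 and 10.15 in RA56, against 10.06, 9.97 and 9.94 in control, EMD50 and EMD150, so RA5 was the further out. Beside Mt2A these were Klf9 (0.73), Cebpb (0.47), Tsc22d3 (0.35), Errfi1, Tat and Nfkbia (0.22 to 0.23), and the 2 below were Hsd11b1 and Serpina6, the gene of the corticosteroid carrier of blood (-0.31). Klf9's other probe sets differed by 0.06 and -0.04. Mt2A, which the zinc list holds too, was the only member called. Hamp, Id1 (0.60), Smad7 and the iron exporter gene Slc40a1 were the 4 of 15 iron genes above, and 0 lay below. That share above, 26.7%, was near the 25.1% of the brightest 25% of probe sets, where the list's median level of 10.1 lies. The median difference of the iron list was 0.005. With quantile normalization the iron counts were 3 and 1, and Slc40a1 changed sign there, at -0.02.

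Among the lists with more members below than above were those of drug handling, cholesterol and cell division. Others included the retinoid list, sex and growth hormone dependent genes (6 below, 2 above) and bile transport (4 below, 3 above). Of all probe sets 14.8% lay below. The share was 6.88% in the brightest 25%, where the drug and cholesterol lists have their median level. It was 17.9% between levels of 7.0 and 8.12, where the cell cycle list has its median. Of 30 genes of drug metabolism, 9 (30%) lay below and 1 above, with a median of -0.16. Aldh1a1 counts in this list too, and beside Slco1a4 there were Gsta3, a glutathione transferase, at 9.22 and 9.39 with retinoic acid, against 9.59, 10.34 and 10.62, and Ephx1, the microsomal epoxide hydrolase, at 12.08 and 12.05, against 12.10, 12.52 and 12.95. In Aldh1a1, Gsta3, Slco1a4 and Ephx1 alike the control was the nearest array and both EMD 82571 arrays were higher. Of 20 genes of cholesterol synthesis and uptake, 7 (35%) lay below and 2 above. Among the 7 were Insig2 (-0.49) and Dhcr7 (-0.35), the enzyme of the last step to cholesterol. The 2 above were Insig1 (0.39) and Sqle (0.18). Of 33 cell cycle genes, 11 (33.3%) lay below and 1 above, with Cdc25b (-0.46), Ube2c (-0.31) and Cdc20 (-0.27) furthest. Cdc25b had 7.28 and 7.29 with retinoic acid, against 8.44 in the control, 7.40 in EMD50 and 7.39 in EMD150, so its difference came mostly from the control array.

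Several lists turned with the scaling. The shares above as deposited were 21.4%, 20% and 16.2% for the 3 lists that follow. They lay between the 13.7% of all probe sets and the 25.1% of the brightest 25%. The acute phase counts were 6 above and 3 below of 28 as deposited and 3 and 8 with equal SDs. A2m, an acute phase protein of rat, had 7.63 and 7.54 with retinoic acid, against 7.71, 7.89 and 11.21 in control, EMD50 and EMD150, so that EMD150 alone was high. Genes of gluconeogenesis and amino acid breakdown had 6 above and 2 below of 30 as deposited, and 4 and 5 with equal SDs. Pklr counts among the 6 above, though its enzyme breaks glucose down rather than making it. Fatty acid oxidation gave 6 and 4 of 37, and 3 and 7 with quantile normalization.

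**Figure D3:**
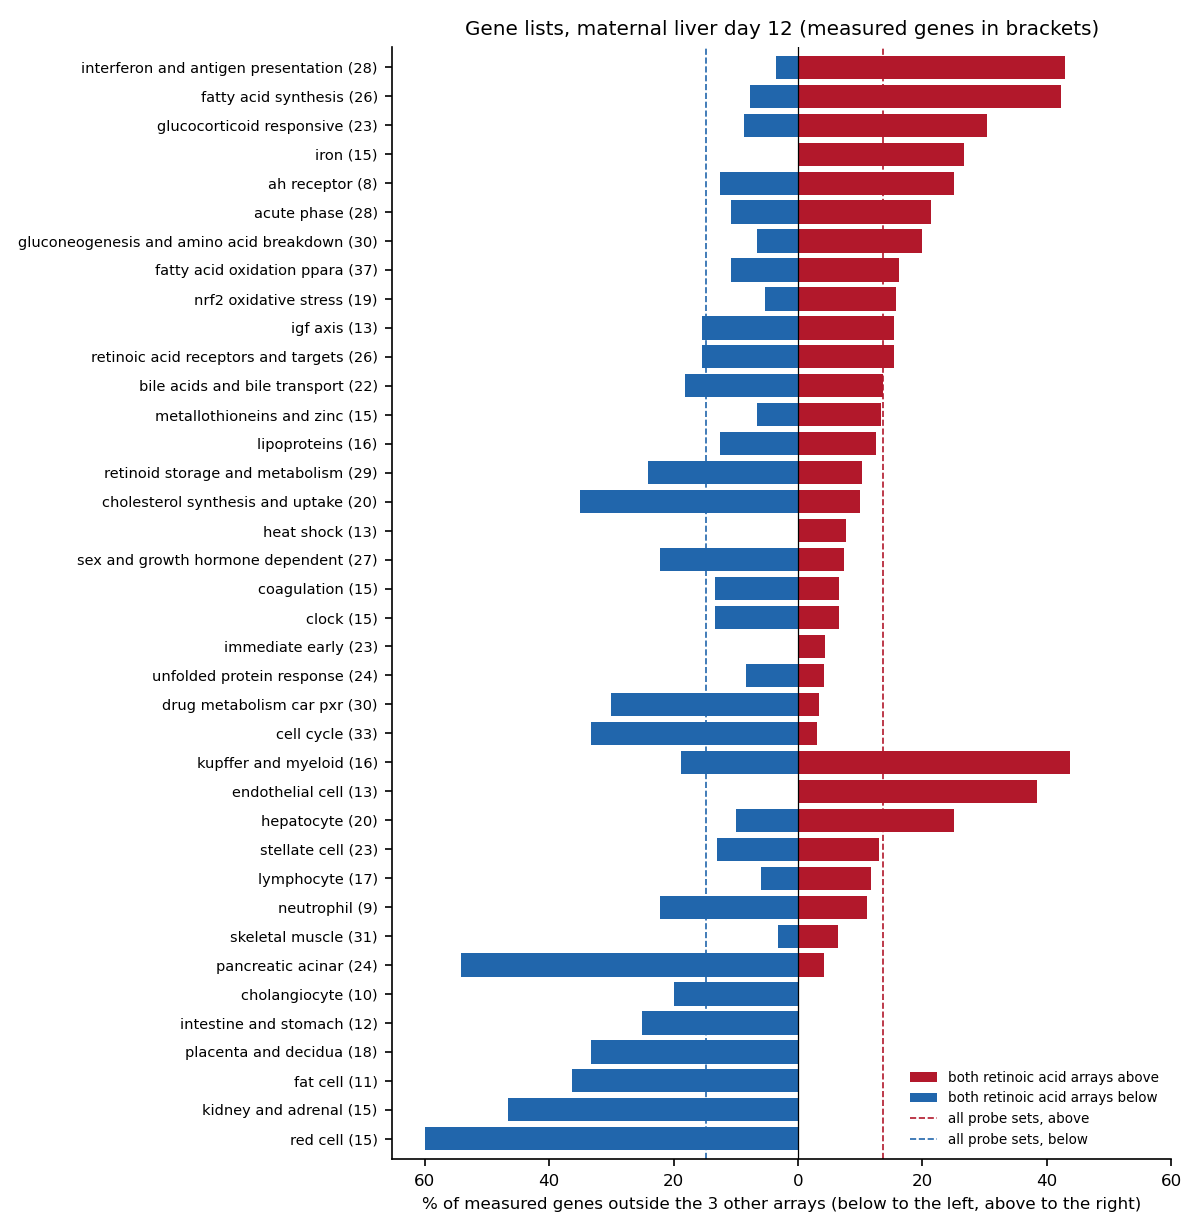
Share of the measured genes of each list (x axis, percent) with both retinoic acid arrays above all 3 others (right) or below (left), with the number measured in brackets; cell type lists are in the lower part. Dashed lines mark the 13.7% and 14.8% of all probe sets, and interferon, fatty acid synthesis and Kupffer cell genes extend furthest to the right.

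The share outside the rest moved with the level of a probe set. Among the 25% with the lowest means, up to 7.0, 5.37% lay above and 21.5% below, and among the 25% with the highest means, from 9.25, 25.1% lay above and 6.88% below. The SD over all probe sets was 1.71 and 1.68 on RA5 and RA56, against 1.67, 1.66 and 1.65 on control, EMD50 and EMD150. Of lists of tissues that a liver sample should not hold, 7 of 15 kidney and adrenal genes, 6 of 18 placental and 3 of 12 of gut lay below, with 0 above in each. Of 31 skeletal muscle genes 2 lay above and 1 below. Most genes of each of these 4 lists lay neither above nor below. With equal SDs the first 3 counts were 4, 3 and 2, and 2 placental genes lay above. With the SDs made equal 2354 lay above and 1921 below, of which 1775 and 1602 were shared with the counts as deposited. The part of this spread in the counts by list was not tested beyond these scalings. RA5 was the further out of the pair in 1439 of the 2174 above and in 1500 of the 2353 below. The array nearest to retinoic acid was the control in 38.5% of those above, EMD50 in 34.2% and EMD150 in 27.4%.

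Marker genes were read against the tissue label. Alb, for the albumin of serum, had 15.14 and 15.18 with retinoic acid, against 15.17, 15.18 and 15.15, and the fetal Afp lay between 8.08 and 8.57 on the 5 arrays. Arrays correlated across probe sets with r of 0.9906 to 0.9955; probe sets are not independent. In bulk tissue, fewer cells of a type and less RNA per cell cannot be told apart, and this holds for each marker list. Pancreatic acinar genes, of a tissue that adjoins the liver, had a mean level of 7.51 and 7.54 on the retinoic acid arrays, against 9.65 in the control, 9.11 in EMD50 and 7.58 in EMD150. Of 24 acinar genes 13 (54.2%) lay below and 1 above, where 14.8% and 13.7% of all probe sets did. In 19 of the 24 the control was highest and EMD50 second. Ctrb1, a chymotrypsinogen gene, had 6.72 and 6.69, against 10.71, 10.09 and 6.86. The part of acinar RNA in the comparison was not tested.

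Red cell genes lay below in 9 of 15 (60%) and above in 0, where 14.8% and 13.7% of all probe sets did. Their list means were 7.94 and 7.91 on the retinoic acid arrays, against 8.34, 8.06 and 8.12. Hbb, a globin gene, had 12.64 and 12.63, against 14.00, 12.75 and 12.83, so the control stood apart here too. Fat cell genes had means of 7.84 and 7.82, against 8.44, 7.85 and 7.90. Kupffer cell and myeloid genes went the other way, with 7 of 16 (43.8%) above and 3 below. Of the brightest 25% of probe sets, where this list has its median level, 25.1% lay above. The counts were 6 and 3 with quantile normalization and 8 and 3 with equal SDs. The list means were 9.81 and 9.87 with retinoic acid, against 9.67, 9.60 and 9.66. Fcer1g, a subunit of Fc receptors, had 10.51 and 10.68, against 9.97, 10.09 and 9.98 (0.58 ± 0.09, adjusted p = 0.148). Cd68, of macrophage lysosomes, differed by 0.50, and C1qa, C1qb and C1qc, the chains of complement C1q, by 0.33 to 0.39. Aif1 (-0.27) and Cd14 (-0.21), also of macrophages, lay below. Of 13 endothelial genes 5 (38.5%) lay above and 0 below, with Lyve1 of sinusoids at 0.48. In the 25% of probe sets that holds this list's median level, 15.7% lay above. The endothelial count above was 3 with quantile normalization and 4 with equal SDs. Of 23 stellate cell genes 3 (13%) lay above, Lrat among them, and 3 (13%) below, near the 13.7% and 14.8% of all probe sets. Hepatocyte genes had 5 (25%) above and 2 (10%) below of 20 as deposited, and 2 and 8 with equal SDs. The share above was near the 25.1% of the brightest 25% of probe sets, where this list has its median level. Whether any of these cell types moves with the interferon or lipid lists was not tested.

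**Figure D4:**
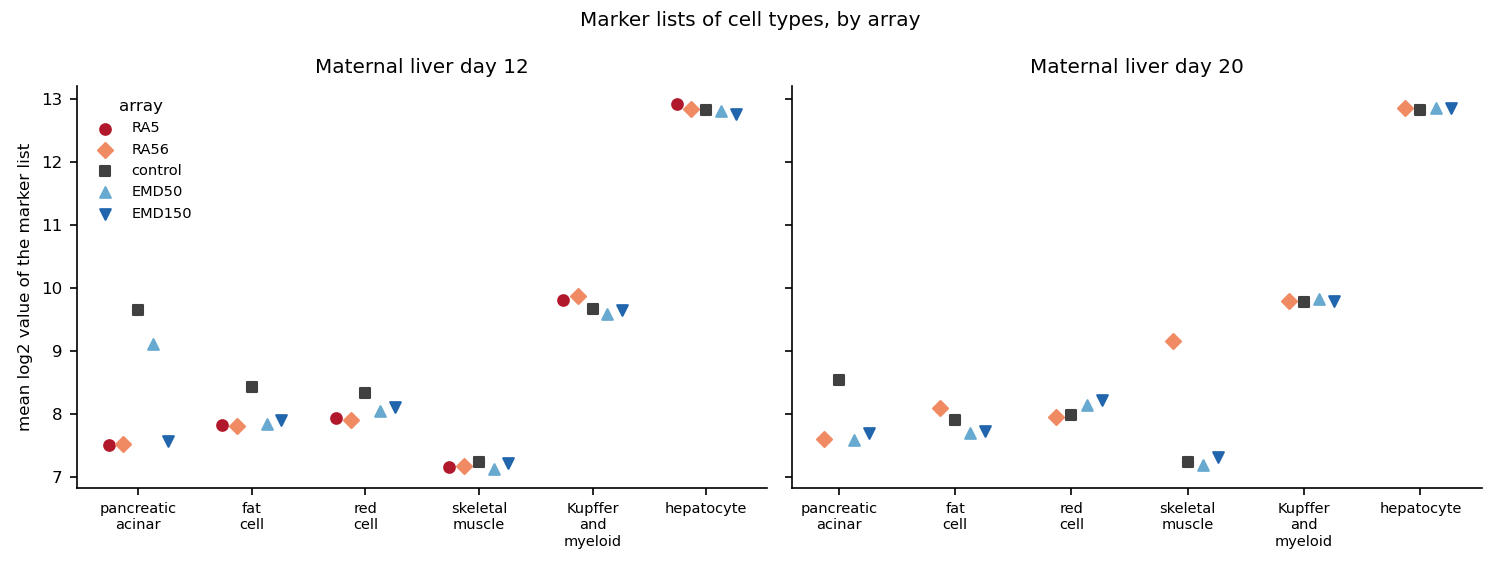
Mean log2 level (y axis) of 6 marker lists on the single arrays of maternal liver at day 12 (left) and day 20 (right), retinoic acid arrays first in each. Acinar genes stand at 9.65 and 9.11 in the control and EMD50 arrays of day 12, and muscle genes at 9.17 in the retinoic acid array of day 20.

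Maternal liver at day 20 held 1 retinoic acid array against a control, an EMD50 and an EMD150 array, so a probe set is outside the rest there more readily. At that day 3713 probe sets (23.4%) lay above and 5236 (33%) below. Of the 2174 above at day 12, 719 were above at day 20, which is 33.1% of the first list and 19.4% of the second, and 498 (22.9%) were below. Of the 2353 below at day 12, 958 (40.7%; 18.3% of the day 20 list) were below and 319 above. Of the 15 genes with the widest gap above, 3 were above at day 20, Mest, Plac8 and Irf7, and 7 were below. Of the 15 with the widest gap below, 5 were below at day 20 and 6 above. Mest had 8.58 with retinoic acid at day 20, against 7.20, 7.39 and 7.04, a difference of 1.37 that kept the direction of day 12. Ptger3 was also lowest with retinoic acid at both days, with 6.21 at day 20 against 6.78, 7.05 and 6.57.

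Limma called a difference between the days for 105 probe sets (0.662%), of which 12 were higher at day 12 and 93 lower. Beside Cyp26a1 and Mt2A, Thrsp was higher, by 1.65 ± 0.29 (adjusted p = 0.03): it had 11.52 with retinoic acid at day 20, against 11.94, 12.42 and 12.00. Tfrc, which lay below at day 12 at 7.81 and 7.71 against 8.101, 8.26 and 8.35, had 8.94 with retinoic acid at day 20, against 7.65, 7.25 and 7.98. Its interaction was -1.79 ± 0.28 (adjusted p = 0.0194), and that of its other probe set -1.47 ± 0.29 (adjusted p = 0.0541). The retinoic acid array of day 20 had a mean of 9.17 over 31 skeletal muscle genes, against 7.25, 7.19 and 7.32 in control, EMD50 and EMD150, and 24 of these genes were among the 93. The part of muscle RNA in the other differences between days was not tested. Nor can the day be told apart from the length of dosing or the time since the last dose. Without any 1 array other than that one, the count ran from 42 (without the RA5 liver) to 221 (without the EMD150 liver of day 20). It was 54 without EMD50, 66 without the control and 67 without RA56 of day 12, 69 without the control of day 20 and 176 without its EMD50.

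In whole embryo at day 12, with the same 2 codes of retinoic acid arrays, 1572 probe sets (9.91%) lay above and 1568 (9.88%) below. Of the 2174 above in liver, 308 were above in embryo (14.2% of the liver list and 19.6% of the embryo list), and 152 were below. Of the 2353 below in liver, 215 (9.14%; 13.7% of the embryo list) were below and 145 above. Of the 15 genes with the widest gap above in liver, RT1-S3 was the only 1 above in embryo and 0 were below. Limma called a difference between the tissues for 12 probe sets (0.0756%), 2 higher in liver and 10 lower. Tfrc had 9.59 and 9.92 in the retinoic acid embryos, against 8.30, 7.90 and 8.18, and its interaction was -2.11 ± 0.22 (adjusted p = 0.0126), and that of its other probe set -1.04 ± 0.27 (adjusted p = 0.285). The hepatocyte list had means of 8.66 and 8.46 in the retinoic acid embryos, against 7.96, 7.69 and 7.61, and its part in these differences was not tested. The count of 12 was 0 without the control or EMD50 liver or the EMD50 embryo, 1 without RA5 liver, 4 without RA56 liver and 21 without EMD150 liver. It was 32, 42 and 153 without the control, RA56 and RA5 embryos.

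**Figure D5:**
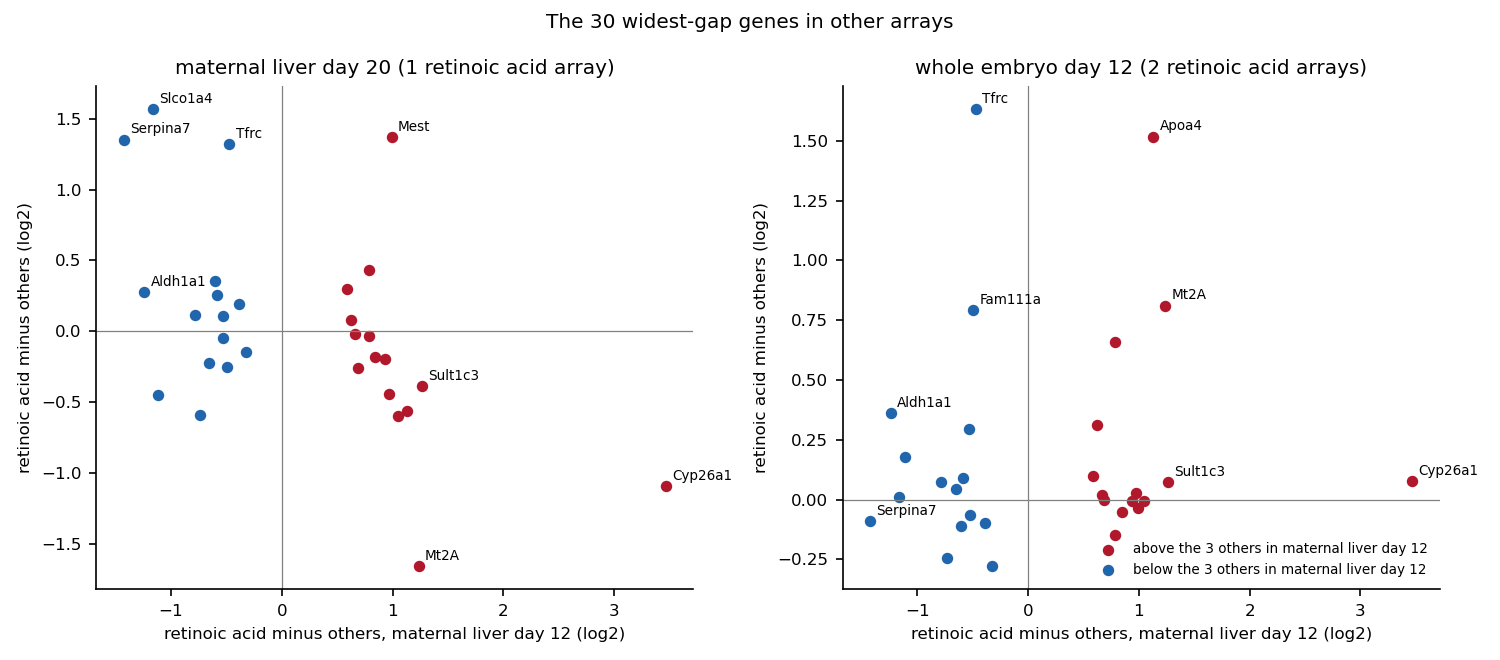
Retinoic acid minus other arrays (log2) in maternal liver of day 20 (left, y axis) and whole embryo of day 12 (right, y axis) against the same difference in maternal liver of day 12 (x axis), for the 30 genes with the widest gap. Cyp26a1 and Mt2A are at -1.09 and -1.66 at day 20, and Tfrc is at 1.32 there and 1.63 in embryo.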

How the data were processed

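Total RNA was measured on single-colour arrays, 1 per sample, after reverse transcription with an oligo dT primer and biotin labelling in vitro, per the labels' protocols. The authors' deposited values are log2 probe set values made with RMA, per the submitters' processing notes. No source used here names the RMA version or any pooling. The number of arrays limits the precision. Of 15923 rows, 57 array controls were left out and the rest were tested without a filter. Gene symbols came from the platform annotation: 12783 probe sets had 1 symbol, 312 several and 2771 none, and 12748 matched the RefSeq gene table (assembly GRCr8).

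Tests used limma 3.58.1 (R 4.3.3; eBayes with an intensity trend), two-sided, with Benjamini-Hochberg adjustment over all probe sets and a call at 0.05. The 5 livers of day 12 left 3 residual degrees of freedom, and the interactions with day and tissue 5 and 6. The single day 20 retinoic acid array is assumed to vary like the others. The 38 gene lists (885 genes, 707 measured, 15 through a synonym) used the brightest probe set per gene. Named genes were the markers Cyp26a1, Lrat and Mt2A, the 15 widest gaps per direction (1 probe set per gene), called genes, up to 4 widest-gap genes of each list, and Alb, Afp, Cyp2c12 and Hbb. Tmem87a, Rara, Rarb, Rbp4, Mt1 and other list members named beside these were chosen after their values were seen. Markers, members and lists were chosen with earlier results of these data known. The fits were tested on simulated data. Alternatives changed the variance moderation, scaling, filter, grouping, pairing and arrays.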

Additional observations from a re-analysis of the deposited data

Results flagged for a closer look

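The difference between retinoic acid and the other arrays differed between days 12 and 20 of maternal liver for 8 of the 149 named probe sets, by the limma interaction. Of all 15866 probe sets, 105 (0.662%) were called. Named genes were chosen largely by day 12 values that the interaction uses again, so the 2 shares cannot be set against each other. The day also cannot be told apart from the length of dosing or the time since the last dose. The size was 4.56 for Cyp26a1, 2.89 for Mt2A, 1.65 for Thrsp and 0.87 for Rxrg, a partner of the retinoic acid receptors that had 9.23 with retinoic acid at day 20 against 9.90, 10.05 and 9.91. It was -0.96 for the muscle gene Mybpc2, -1.24 for the clock gene Bmal1, -1.79 for Tfrc and -2.29 for Car3, a carbonic anhydrase of muscle, fat and liver. Mybpc2 belongs to the muscle list that was high in the single day 20 retinoic acid array, and Car3 had 10.87 there, against 9.19, 9.16 and 9.09. Between maternal liver and whole embryo of day 12, where 12 (0.0756%) of all probe sets were called, the difference was 3.39 for Cyp26a1 and -2.11 for Tfrc. Cyp26a1 was low on all embryo arrays.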

How the results depend on the processing

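Limma's count of 4 for day 12 maternal liver became 0 without the intensity trend, with quantile normalization, with control and EMD 82571 as separate groups (2 residual degrees of freedom) and in a fit of 9 maternal livers, where 1580, 1343, 1416 and 713 probe sets had an unadjusted p under 0.05. It was 2 with 10 arrays of day 12, and 1 to 22 without single arrays. The counts of 2174 above and 2353 below were 11 and 4 at a gap of 0.5, 1499 below with the lower 25% by mean level left out, and 2969 to 4717 and 3046 to 5059 without single arrays, where a smaller group is outside the rest more readily. The 105 calls between days ran from 42 to 221 without single arrays. The 12 between tissues were 4 without the trend, 55 with quantile normalization, 31 with equal SDs, 5 with the lower 25% by mean level left out and 0 to 153 without single arrays; the cause was not tested. Of the 149 differences of named probe sets under 1920 alternatives, 11 changed sign, none of them called: Slc40a1 (-0.0164), Cyp2c12 (-0.0361) and Alb (0) with quantile normalization; Cyp2c12 (-0.122), Krt7 (0.007) and Slc12a1 (0.0193) with equal SDs; and without single arrays Afp, Cyp2c12 and Alb, over ranges of -0.184 to 0.302, -0.0107 to 0.0317 and -0.0258 to 0.0158. The alternatives for day 20 and whole embryo counts were added after seeing the data and kept them within 1.5 times. Within maternal liver of day 12 the groups compared share no array code. The codes recur in the other tissues and days, but whether a code marks the same dam is not given, and the RA5 minus RA56 difference correlated with r = -0.14 across probe sets between liver and embryo. With the array code as a replicate block, an alternative added after seeing the data, 4 probe sets were called between tissues, Cyp26a1 and Tfrc among them (adjusted p = 0.0466 for both), and 2 with RA5 and RA56 of the embryo crossed. Between days the block gave 42, with Cyp26a1 (adjusted p = 1.943e-04) and Tfrc (0.044) called and Mt2A (0.0625) and Thrsp (0.0905) not.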
